A study of Mus musculus with 8 samples.

Results

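The joining (J) segments of the T cell receptor alpha chain, TRAJ, were followed along their locus in T cells of the injured mouse brain. Every J call that started with TRAJ on an alpha (TRA) contig of the 4 single-cell T cell receptor libraries was taken, which gave 43 segments among the 55 J segments called on all contigs, the other 12 being beta-chain segments. The RefSeq annotation of the assembly GRCm38.p6 lists 60 TRAJ segments on the forward strand of chromosome 14 (chr14:54155005-54218842), a cluster of 63.8 kb that ends 1.68 kb before the constant gene Trac. The segments are numbered downwards towards Trac, and they were grouped by number into an upstream stretch next to the variable (TRAV) genes (TRAJ40 and above, 14 segments seen), a middle stretch (TRAJ20 to TRAJ39, 16 segments) and a downstream stretch next to Trac (below TRAJ20, 13 segments).

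The mice were C57BL/6 males that received a traumatic brain injury (TBI) by controlled cortical impact, young (Y, 13 to 15 weeks old at injury) or aged (A, 80 to 82 weeks). They received 300 µg of an antibody to CD49d (aCD49d), the alpha 4 integrin that leukocytes use to enter tissue, or of its isotype control, starting after the injury and then every 2 weeks. CD45+ cells were sorted from the brain 2 months after TBI. All 4 groups carried the injury, no sham library was used here, and each group (YTBI_Isotype, YTBI_aCD49d, ATBI_Isotype and ATBI_aCD49d) was 1 library made from 2 pooled mice. With 1 library in each group the groups cannot be tested against each other, so shares are given with 95% exact (Clopper-Pearson) intervals and differences with Newcombe intervals, which cover counting error only and not the spread between mice.

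An alpha chain is assembled in the thymus by joining 1 TRAV gene to 1 TRAJ segment, with no D segment between them. The locus can recombine again and again on the same chromosome: each round joins a TRAV further upstream to a TRAJ further downstream and deletes what lies between, until a chain passes positive selection. Early rounds therefore use TRAV genes and TRAJ segments that lie close to each other, and later rounds reach outwards on both sides. A pair of fixed joints mark innate-like T cells, TRAV11 with TRAJ18 in invariant natural killer T cells, which see lipids on CD1d, and TRAV1 with TRAJ33 in mucosal-associated invariant T cells, which see vitamin B metabolites on MR1.

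The germline sequences of the most used segments of each stretch are given first, since the bases before the capitals end up in the antigen-binding loop CDR3 and set much of its length. Capitals mark the codons of the conserved motif of phenylalanine or tryptophan, glycine, any residue and glycine, whose first residue ends the CDR3. In the upstream stretch these were TRAJ57, TRAJ49 and TRAJ40.
TRAJ57 (chr14:54158507-54158569): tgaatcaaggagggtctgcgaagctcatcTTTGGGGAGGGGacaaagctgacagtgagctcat
TRAJ49 (chr14:54168686-54168744): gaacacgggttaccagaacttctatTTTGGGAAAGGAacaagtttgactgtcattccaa
TRAJ40 (chr14:54177921-54177981): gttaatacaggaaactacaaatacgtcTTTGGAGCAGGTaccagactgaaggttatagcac
In the middle stretch they were TRAJ31, TRAJ23 and TRAJ22, shown with TRAJ33, the segment of mucosal-associated invariant T cells.
TRAJ33 (chr14:54185358-54185414): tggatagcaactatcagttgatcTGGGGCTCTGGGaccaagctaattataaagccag
TRAJ31 (chr14:54187895-54187951): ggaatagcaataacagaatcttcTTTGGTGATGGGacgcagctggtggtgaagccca
TRAJ23 (chr14:54196081-54196140): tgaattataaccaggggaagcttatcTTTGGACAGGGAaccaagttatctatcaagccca
TRAJ22 (chr14:54197248-54197307): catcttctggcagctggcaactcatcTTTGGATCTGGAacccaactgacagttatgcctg
In the downstream stretch they were TRAJ18, TRAJ12 and TRAJ9.
TRAJ18 (chr14:54200777-54200842): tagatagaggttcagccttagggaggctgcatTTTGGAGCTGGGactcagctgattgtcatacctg
TRAJ12 (chr14:54206552-54206610): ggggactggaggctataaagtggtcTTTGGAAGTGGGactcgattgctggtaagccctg
TRAJ9 (chr14:54209393-54209450): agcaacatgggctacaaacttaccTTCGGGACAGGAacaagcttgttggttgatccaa
TRAJ33 was the member of this set with tryptophan (TGG) in place of phenylalanine, and TRAJ18 carried the longest run before the motif in the set.

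The libraries held 262 (YTBI_Isotype), 577 (YTBI_aCD49d), 1024 (ATBI_Isotype) and 1123 (ATBI_aCD49d) cells with a T cell receptor, and an alpha chain was found in 82.8%, 78.3%, 67.6% and 83.4% of them. A TRAJ segment was counted by rearrangement, that is 1 time for each deposited clonotype of a library that carried it, or by cell. This gave 207, 408, 363 and 500 rearrangements in the same order (1478 in all) and 233, 487, 714 and 981 cell counts. A clonotype of many cells thus counted 1 time by rearrangement and once per cell by cell. Unless a library is named, values are given in this order below. Alpha chains rested on a median of 3 to 4 UMIs, and chains with 1 UMI made up 22.8% in ATBI_Isotype against 8.75% to 11.5% in the other libraries. ATBI_Isotype was also the library with the lowest share of cells with an alpha chain, and the part of this in its values was tested only by leaving out chains with 1 UMI. One barcode of 2985 occurred in 2 libraries, with different alpha chains. The deposited tables held productive chains only, so a share describes receptors that could be expressed and not all recombination.

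Of the 43 segments, 40 were found in all 4 libraries. TRAJ38 (0, 2, 0 and 5 rearrangements), TRAJ16 (0, 3, 4 and 6) and TRAJ11 (1, 0, 2 and 8) were the exceptions, and 0 of 207 rearrangements allows a share of up to 1.77% by the exact interval. Use was uneven. The segments of the middle stretch had 7 to 99 rearrangements (median 47.5), those of the upstream stretch 13 to 36 (median 24) and those of the downstream stretch 9 to 134 (median 26). Without the TRAV11-TRAJ18 joints this came to 43.6 rearrangements per segment in the middle stretch, 23.9 upstream and 25.5 downstream. The middle stretch led in each library, with 6.31, 12.3, 10.6 and 14.4 rearrangements per segment against 3.29, 5.93, 6.0 and 8.71 upstream and 3.08, 7.15, 6.85 and 8.38 downstream.

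**Figure D1:**
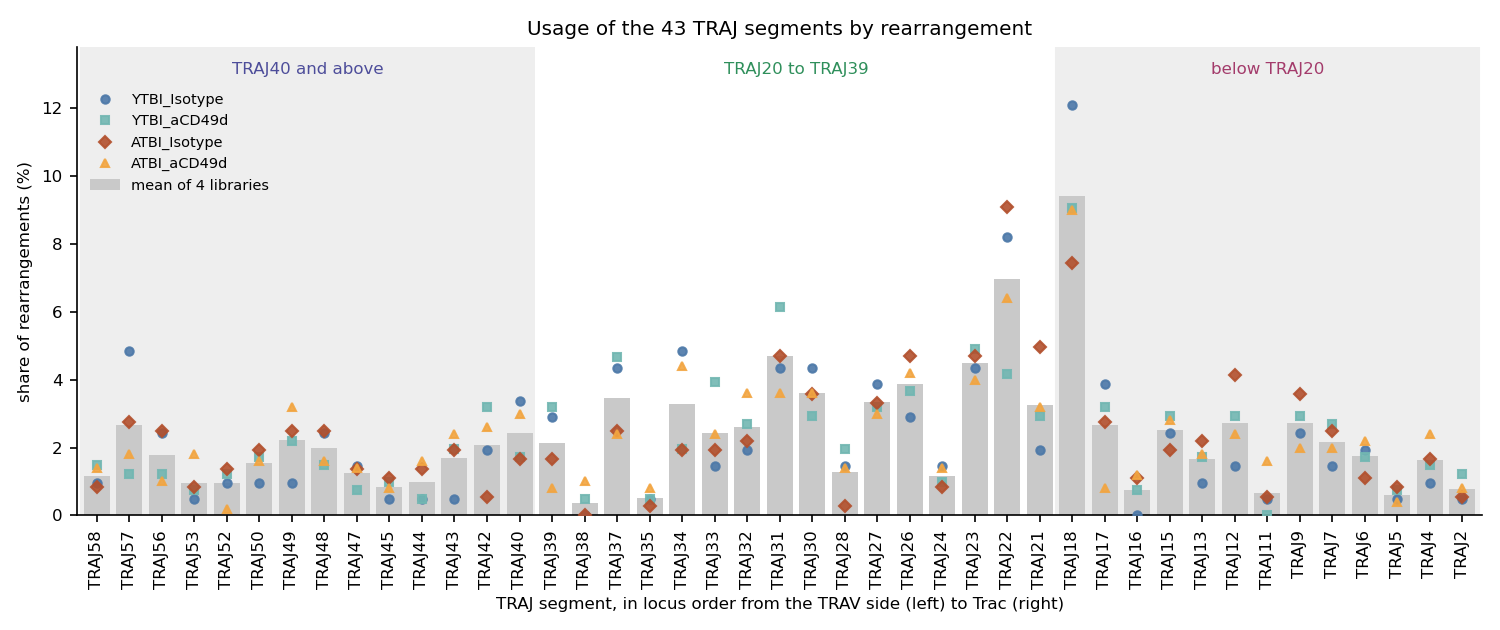
Share of rearrangements (%, y axis) of each TRAJ segment seen, in locus order (x axis), with 1 marker for each library and grey bars for the mean of the 4 libraries. TRAJ18 (mean 9.40%) and TRAJ22 (mean 6.97%) stand above the others, and the middle stretch holds most of the segments above 3%.

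TRAJ18 was the most used segment by rearrangement, with 12.1%, 9.07%, 7.44% and 9.0%. TRAJ22 followed with 8.21%, 4.17%, 9.09% and 6.40%. Both were above every segment of the upstream stretch in their mean over the libraries. TRAJ31 had 4.35%, 6.13%, 4.68% and 3.60%. TRAJ23 was the steadiest of these, with 4.35%, 4.90%, 4.68% and 4.0% (mean 4.48% ± 0.39, SD, n = 4 libraries). Upstream, TRAJ49 had 0.97%, 2.21%, 2.48% and 3.20%, TRAJ40 had 3.38%, 1.72%, 1.65% and 3.0%, and TRAJ57 had 4.83%, 1.23%, 2.75% and 1.80%. Downstream, TRAJ12 had 1.45%, 2.94%, 4.13% and 2.40%, and TRAJ9 had 2.42%, 2.94%, 3.58% and 2.0%. Neighbours in this order were not separated: the ranges over libraries of TRAJ49, TRAJ40, TRAJ57, TRAJ12 and TRAJ9 overlapped.

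The 17 annotated segments not seen were TRAJ61, TRAJ60, TRAJ59, TRAJ55, TRAJ54, TRAJ51, TRAJ46, TRAJ41, TRAJ36, TRAJ29, TRAJ25, TRAJ20, TRAJ19, TRAJ14, TRAJ8, TRAJ3 and TRAJ1. Pseudogenes by annotation made up 9 of them. The motif with phenylalanine or tryptophan stood in frame in 41 of the 43 segments seen, the exceptions being TRAJ44 and TRAJ7, which have leucine there, and in 2 of the 17 not seen (TRAJ54 and TRAJ25). A stop codon stood in frame in 10 of the 17, TRAJ54 included, and in none of the 43. A productive chain cannot hold a stop in the germline bases that it keeps. Among the 8 unseen segments annotated as functional, 5 held such a stop. TRAJ3 and TRAJ41 are shown as examples, without capitals since no motif was found in frame.
TRAJ3 (chr14:54217292-54217357): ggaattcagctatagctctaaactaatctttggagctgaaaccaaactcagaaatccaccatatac
TRAJ41 (chr14:54176271-54176325): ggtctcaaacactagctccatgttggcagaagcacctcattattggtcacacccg
TRAJ3 and TRAJ41 both held a stop codon in the frame that leads into the constant gene.

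Each TRAJ is preceded by a recombination signal, a nonamer and a heptamer set 12 bases apart, at which the RAG recombinase cuts. The commonest base at each place over the 43 segments gave GGTTTTTGT for the nonamer and CACTGTG for the heptamer. Shown are the signals of the most used segment of each stretch, with nonamer and heptamer in capitals, and that of TRAJ31, which had a heptamer unlike the commonest one.
signal of TRAJ49 (chr14:54168658-54168685): GGTTTTTGTtgaggttattgtCACAGTG
signal of TRAJ31 (chr14:54187867-54187894): GGTTTCAGTaaaggcaagagaTGATGTG
signal of TRAJ22 (chr14:54197220-54197247): GGTTCTTGTtgttgagcaaatCACAGTG
signal of TRAJ18 (chr14:54200749-54200776): GATTTGTGTaaagggggctggCACTGTG
All 43 segments seen had GTG as the last bases of the signal, against 6 of the 17 not seen, and the full CACTGTG stood before 14 of the 43 and 2 of the 17. Matches to the 16 commonest bases ran from 11 to 16 (median 13) in the segments seen and from 7 to 14 (median 10) in the others. The commonest bases were themselves taken from the 43, so these counts describe them and are no test. Among the 43, Spearman's rho between matches and rearrangements without TRAV11-TRAJ18 was 0.12 and Pearson's r 0.09 across segments, which are not independent replicates. The 14 segments with the full heptamer had a median of 35 such rearrangements and the other 29 a median of 26. TRAJ31, the third most used segment, had the heptamer TGATGTG.

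The split over the stretches was much the same in the 4 libraries. TRAJ40 and above took 46 of 207 (22.2%, 16.7 to 28.5), 83 of 408 (20.3%), 84 of 363 (23.1%) and 122 of 500 rearrangements (24.4%). The middle stretch took 48.8%, 48.3%, 46.6% and 46.2%, and the segments below TRAJ20 took 29.0%, 31.4%, 30.3% and 29.4%. No stretch moved by more than 4.06 points in any of the 4 comparisons of libraries. With antibody against isotype, TRAJ40 and above differed by -1.88 points in young (-9.22 to 5.04) and by 1.26 points in aged mice (-4.71 to 7.10). The segments below TRAJ20 differed by 2.39 points in young (-5.66 to 10.1) and by -0.90 points in aged mice (-7.29 to 5.40). With aged against young, TRAJ40 and above differed by 0.92 points under isotype (-6.66 to 8.12) and by 4.06 points under aCD49d (-1.57 to 9.58). Segments below TRAJ20 differed by 1.32 (-6.85 to 9.20) and -1.97 points (-8.16 to 4.17). All 8 intervals held 0, and each was about 11 to 16 points wide, so a shift of a few points would not have been detectable at this depth.

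**Figure D2:**
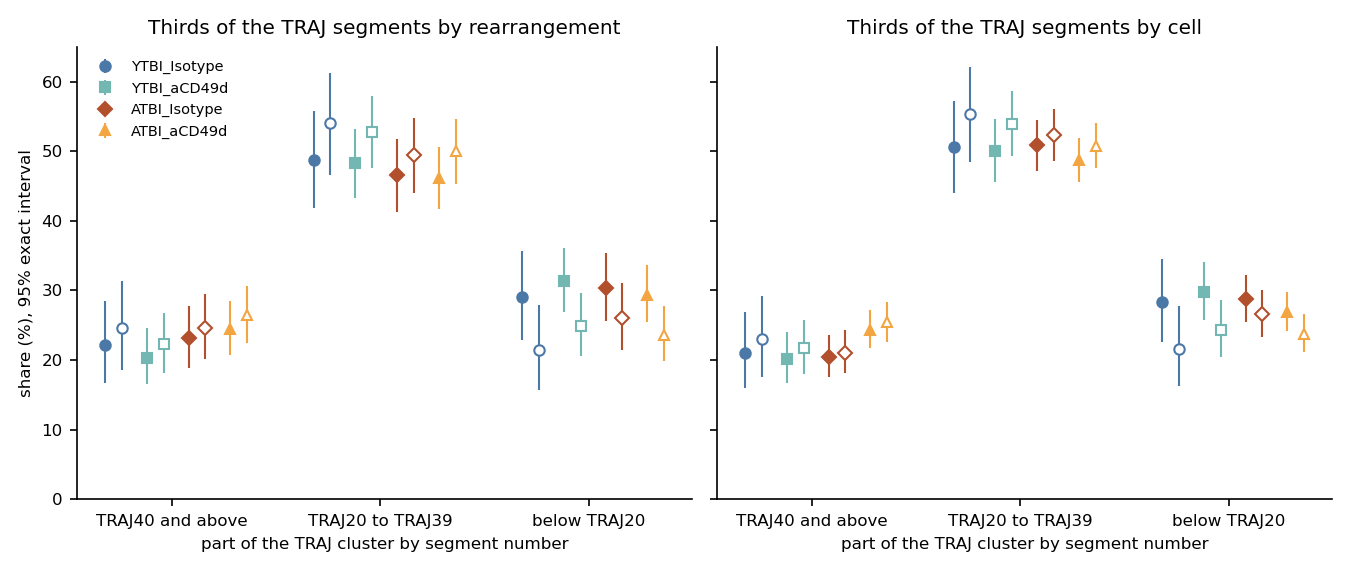
Share (%, y axis) of the upstream, middle and downstream stretch of the TRAJ segments (x axis) in each library, by rearrangement (left) and by cell (right), with 95% exact intervals. Filled markers hold all chains and open markers leave out TRAV11-TRAJ18. The order of the stretches with TRAV11-TRAJ18 is the same in all libraries, and open markers sit lower than filled ones only below TRAJ20.

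By cell the shares were close to those by rearrangement, with 21.0%, 20.1%, 20.4% and 24.4% for TRAJ40 and above and 28.3%, 29.8%, 28.7% and 26.9% below TRAJ20. Cells of 1 clonotype are copies of 1 rearrangement, so intervals by cell are too narrow. ATBI_aCD49d exceeded ATBI_Isotype by 3.91 points in TRAJ40 and above by cell (-0.20 to 7.95), and by 4.33 points without TRAV11-TRAJ18 (0.09 to 8.49). In clonotypes of 2 or more cells the same difference by cell was 6.62 points (1.34 to 11.8), and 6.75 points (1.45 to 11.9) without these joints. The same difference by rearrangement without TRAV11-TRAJ18 was 1.85 points (-4.47 to 8.03). In ATBI_aCD49d, 101 of the 239 cell counts of TRAJ40 and above belonged to TRAJ49, and 81 of these carried 1 nucleotide sequence.

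TRAJ18 owed its place to a single partner. TRAV11 was joined to it in 114 of 134 rearrangements (85.1%), in 20, 35, 21 and 38 rearrangements of the libraries in order. These were 9.66% (6.0 to 14.5), 8.58% (6.05 to 11.7), 5.79% (3.62 to 8.71) and 7.60% (5.43 to 10.3) of all rearrangements, and the intervals overlapped. By cell they were 8.58% (5.32 to 12.9), 7.19% (5.06 to 9.85), 2.94% (1.83 to 4.46) and 4.08% (2.93 to 5.51). The interval by cell of ATBI_Isotype lay below those of both young libraries, but intervals by cell are too narrow, as given above. Without TRAV11, TRAJ18 had 5, 2, 6 and 7 rearrangements with 15 different TRAV and ranked 29 of the 43 segments. The TRAV11 family in turn was joined to another TRAJ in 3 of its 117 rearrangements. Without the TRAV11-TRAJ18 joints, the share below TRAJ20 was 21.4%, 24.9%, 26.0% and 23.6%.

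The 114 TRAV11-TRAJ18 joints came from 10 nucleotide sequences, all with a CDR3 of 15 residues. The commonest are shown, with bases that match germline TRAJ18 in capitals; they were found in 39, 32 and 31 rearrangements, each in all 4 libraries.
TRAV11-TRAJ18 junction 1: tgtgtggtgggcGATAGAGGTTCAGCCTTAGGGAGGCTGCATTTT
TRAV11-TRAJ18 junction 2: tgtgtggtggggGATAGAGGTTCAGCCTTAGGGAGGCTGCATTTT
TRAV11-TRAJ18 junction 3: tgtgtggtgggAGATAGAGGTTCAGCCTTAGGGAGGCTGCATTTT
The sequences shown differ only in the base before the run GATAG, which in junction 3 matches germline TRAJ18. On average 1.70 ± 0.48 TRAJ18 bases (SD, n = 114) were missing from these joints, against 5.65 ± 2.16 (n = 20) when TRAJ18 was joined to another TRAV. Of these joints 109 were in clonotypes of a single cell and 5 in larger ones, and no clonotype with this joint had more than 2 cells carrying it.

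TRAJ33 was found in 3, 16, 7 and 12 rearrangements (1.45%, 3.92%, 1.93% and 2.40%) with 22 different TRAV. The joint of mucosal-associated invariant T cells, TRAV1-TRAJ33, made up 0, 2, 1 and 0 of them. It was 3 of 38 TRAJ33 rearrangements, so TRAJ33, unlike TRAJ18, was used mostly with other TRAV.

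Single segments were then compared between libraries, where the segment had 10 or more rearrangements in either. In aCD49d against isotype, the largest difference in young mice was in TRAJ22, with 17 of 408 against 17 of 207 rearrangements (-4.05 points, -8.97 to 0.09), followed by TRAJ57, with 5 against 10 (-3.61 points, -7.57 to -0.64). In aged mice it was TRAJ22 again, with 32 of 500 against 33 of 363 (-2.69 points, -6.66 to 1.04), followed by TRAJ34, with 22 against 7 (2.47 points, -0.11 to 4.94). TRAJ22 was the largest at both ages, lower with the antibody, and both of its intervals held 0. The 33 TRAJ22 rearrangements of ATBI_Isotype included repeats of the same nucleotide sequence. TRAV12-1-TRAJ22 sequences stood in 3 and in 2 deposited clonotypes and a TRAV10-TRAJ22 sequence in 2. The difference in aged mice counts these more than 1 time, and its rank among segments was not recomputed over distinct sequences. In aged against young, the largest under isotype was TRAJ18, with 27 against 25 (-4.64 points, -10.4 to 0.57), followed by TRAJ21, with 18 against 4 (3.03 points, -0.53 to 6.13). Under aCD49d it was TRAJ31, with 18 against 25 (-2.53 points, -5.67 to 0.41), followed by TRAJ34, with 22 against 8 (2.44 points, -0.03 to 4.89). These were picked as the largest of 20, 24, 13 and 24 segments in the order given, and the intervals were not widened for that choice. TRAJ57, TRAJ34 and TRAJ21 entered only through the library in which they were higher, which favours a large difference, so these values are a description. With no minimum, 6 of the 172 intervals over all 43 segments left out 0, and each was of a segment with under 10 rearrangements in at least 1 of the libraries compared. They were TRAJ57 in young mice, TRAJ42 (13 against 2) and TRAJ17 (4 against 10) in aged mice with antibody against isotype, and TRAJ17 and TRAJ39 (4 against 13 each) and TRAJ11 (8 against 0) in aged against young under aCD49d, named after their values were seen. The comparisons share libraries, and TRAJ34 was at 4.83%, 1.96%, 1.93% and 4.4%, high in YTBI_Isotype and ATBI_aCD49d and low in the other libraries.

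Expanded clonotypes moved single segments far more than the stretches. In ATBI_Isotype, TRAJ22 made up 9.09% of rearrangements and 23.0% of cell counts (164 of 714, 19.9 to 26.2), a gap of 13.9 points, and 113 of the 164 cells carried 1 nucleotide sequence with TRAV12-1. In the same library TRAJ9 rose from 3.58% by rearrangement to 12.3% by cell (88 cells), 71 of them with 1 TRAV7N-6 sequence. In ATBI_aCD49d, TRAJ13 went from 1.80% to 8.97% (88 cells), 81 with 1 TRAV16N sequence. These were the largest gaps. TRAJ49, TRAJ34, TRAJ32 and TRAJ33 in ATBI_aCD49d, TRAJ56 in ATBI_Isotype and TRAJ31 in YTBI_aCD49d, named after their values were seen, came next with gaps of 7.10, 5.69, 4.76, 4.12, 5.22 and 3.52 points. No segment of YTBI_Isotype had a gap above 1.66 points. TRAJ18 went the other way in all libraries, by -1.35, -1.47, -3.38 and -4.21 points.

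The commonest CDR3 of these segments is given with the bases that match the germline segment in capitals, to show how much of the expanded joints the segment supplied.
TRAV12-1-TRAJ22 in ATBI_Isotype: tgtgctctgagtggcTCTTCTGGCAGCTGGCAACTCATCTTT
TRAV7N-6-TRAJ9 in ATBI_Isotype: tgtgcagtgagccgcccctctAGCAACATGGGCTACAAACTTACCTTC
TRAV16N-TRAJ13 in ATBI_aCD49d: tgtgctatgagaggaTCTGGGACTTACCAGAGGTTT
TRAV9-4-TRAJ49 in ATBI_aCD49d: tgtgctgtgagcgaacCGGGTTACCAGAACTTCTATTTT
TRAV9-4-TRAJ34 in ATBI_aCD49d: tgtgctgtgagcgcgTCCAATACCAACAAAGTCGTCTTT
TRAV12-2-TRAJ32 in ATBI_aCD49d: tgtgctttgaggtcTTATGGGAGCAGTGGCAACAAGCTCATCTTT
TRAV17-TRAJ33 in ATBI_aCD49d: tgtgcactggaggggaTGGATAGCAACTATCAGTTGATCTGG
TRAV14D-1-TRAJ56 in ATBI_Isotype: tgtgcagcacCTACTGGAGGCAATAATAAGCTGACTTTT
TRAV9-2-TRAJ31 in YTBI_aCD49d: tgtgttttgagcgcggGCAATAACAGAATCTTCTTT
TRAJ9 and TRAJ33 kept all of their germline bases (27 and 26), and TRAJ31 lost the most of the set, 6. The TRAV12-1-TRAJ22 sequence stood in 3 deposited clonotypes of ATBI_Isotype, the TRAV17-TRAJ33 sequence in 3 of ATBI_aCD49d, and the TRAV16N-TRAJ13 and TRAV9-4-TRAJ49 sequences in 2 each. The 1478 rearrangements held 1365 distinct sequences, counted within each library. Of these, 31 stood in more than 1 clonotype of their library, 13 of them TRAV11-TRAJ18, and so counted more than 1 time by rearrangement. The 114 TRAV11-TRAJ18 rearrangements came from 10 nucleotide sequences, so the count of TRAJ18 rests largely on such repeats.

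**Figure D3:**
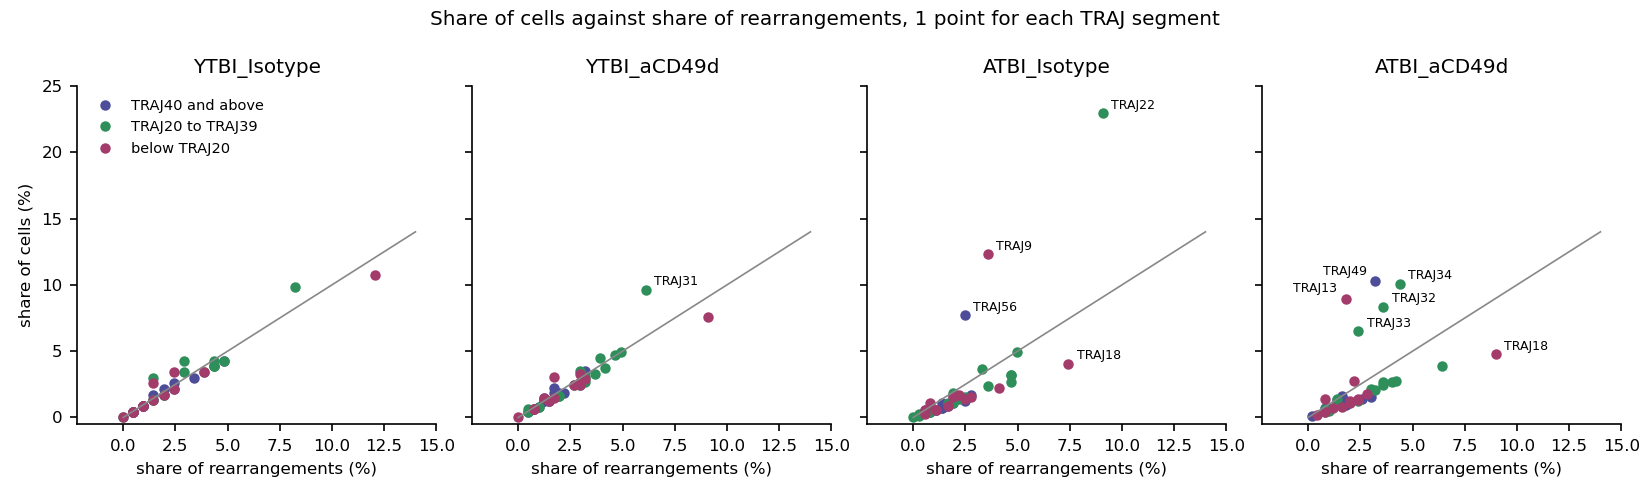
Share of cell counts (%, y axis) against share of rearrangements (%, x axis) of each TRAJ segment in the 4 libraries. The grey line marks equal shares, and segments more than 3 points from it are named. The young isotype library stays along the line, and TRAJ22 in ATBI_Isotype lies farthest above it at 23.0% of cells.

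Rearrangements were split into those of single-cell clonotypes (189, 364, 278 and 415) and those of clonotypes with 2 or more cells (18, 44, 85 and 85). TRAJ40 and above took 22.2%, 20.1%, 24.1% and 23.9% of the single-cell clonotypes and 22.2%, 22.7%, 20% and 27.1% of the larger ones. The differences were 0.00 (-26.0 to 17.1), -2.67 (-18.3 to 9.44), 4.10 (-7.11 to 13.7) and -3.20 points (-14.7 to 6.88), with no common direction. The middle stretch was lower in single-cell clonotypes in all 4 libraries, by -13.5, -7.02, -8.34 and -8.12 points (-7.86, -1.96, -6.34 and -5.93 without TRAV11-TRAJ18), and each interval held 0. The segments below TRAJ20 were higher in them in all 4, by 13.5 (-12.1 to 28.4), 9.69 (-6.17 to 22.0), 4.24 (-7.78 to 15) and 11.3 points (0.31 to 20.5). Without the TRAV11-TRAJ18 joints, nearly all of them single, the last differences fell to 5.23, 2.50, 0.95 and 7.93 points, and the interval in ATBI_aCD49d then held 0 (-2.87 to 16.7).

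TRAV partners followed the position of the TRAJ. TRAV17, TRAV19 and TRAV21-DV12, the TRAV seen that lie nearest to the cluster (348, 310 and 279 kb before its first segment), were found in 40 rearrangements, 35 of them with TRAJ40 and above. TRAV19 (chr14:53845322-53845827) was joined to TRAJ40 and above in 14 of 14 rearrangements and TRAV21-DV12 (chr14:53876016-53876752) in 13 of 13. TRAV17 (chr14:53806639-53807115) was joined to them in 8 of 13. These genes made up 21.7% (10.9 to 36.4), 7.23% (2.70 to 15.1), 8.33% (3.42 to 16.4) and 9.84% (5.19 to 16.6) of the TRAJ40 and above rearrangements. Below TRAJ20 they made up 0 of 60, 1 of 128, 0 of 110 and 0 of 147, and 0 of 60 allows up to 5.96% by the exact interval. The differences of 21.7 (9.41 to 36.4), 6.45 (0.73 to 14.3), 8.33 (2.41 to 16.4) and 9.84 points (4.57 to 16.6) left out 0 in every library. In YTBI_aCD49d the interval held 0 under 4 of 8 alternative ways of counting, with differences of 5.44 to 6.23 points.

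The 5 rearrangements of these TRAV outside the upstream stretch were all of TRAV17. They were 1 with TRAJ12 in YTBI_aCD49d, 1 with TRAJ37 in ATBI_Isotype and 3 with TRAJ33 in ATBI_aCD49d, the last being the expanded TRAV17-TRAJ33 sequence of 47 cells shown above. The highest shares were at the upstream end of the cluster, with 5 of 18 rearrangements of TRAJ58 and 9 of 34 of TRAJ57.

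The pattern was not limited to these 3 genes. The median distance of the TRAV partner from the first TRAJ was 517, 564, 556 and 560 kb for TRAJ40 and above, 726, 793, 836 and 804 kb for the middle stretch, and 1173, 1182, 1113 and 1153 kb below TRAJ20 without TRAV11-TRAJ18. Without these joints it rose from stretch to stretch in every library. With them it was 830, 1022, 1033 and 804 kb below TRAJ20, and in ATBI_aCD49d it then equalled that of the middle stretch. By segment, without these joints, the medians ran from 458 to 667 kb upstream, from 471 to 1086 kb in the middle and from 860 to 1225 kb downstream, so the upstream and downstream segments did not overlap. With them TRAJ18 had a median of 636 kb, within the upstream range. The TRAV span was also cut into 3 equal lengths. Its near part supplied 75.2% of the partners of TRAJ40 and above, 44.0% in the middle and 18.1% below TRAJ20 without TRAV11-TRAJ18 (39.1% with it, TRAV11 lying in the near part). The differences between TRAJ40 and above and below TRAJ20 in this share, without those joints, were 68.3, 59.8, 60.5 and 48.2 points, and the lowest limit of their intervals was 35.5 points.

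**Figure D4:**
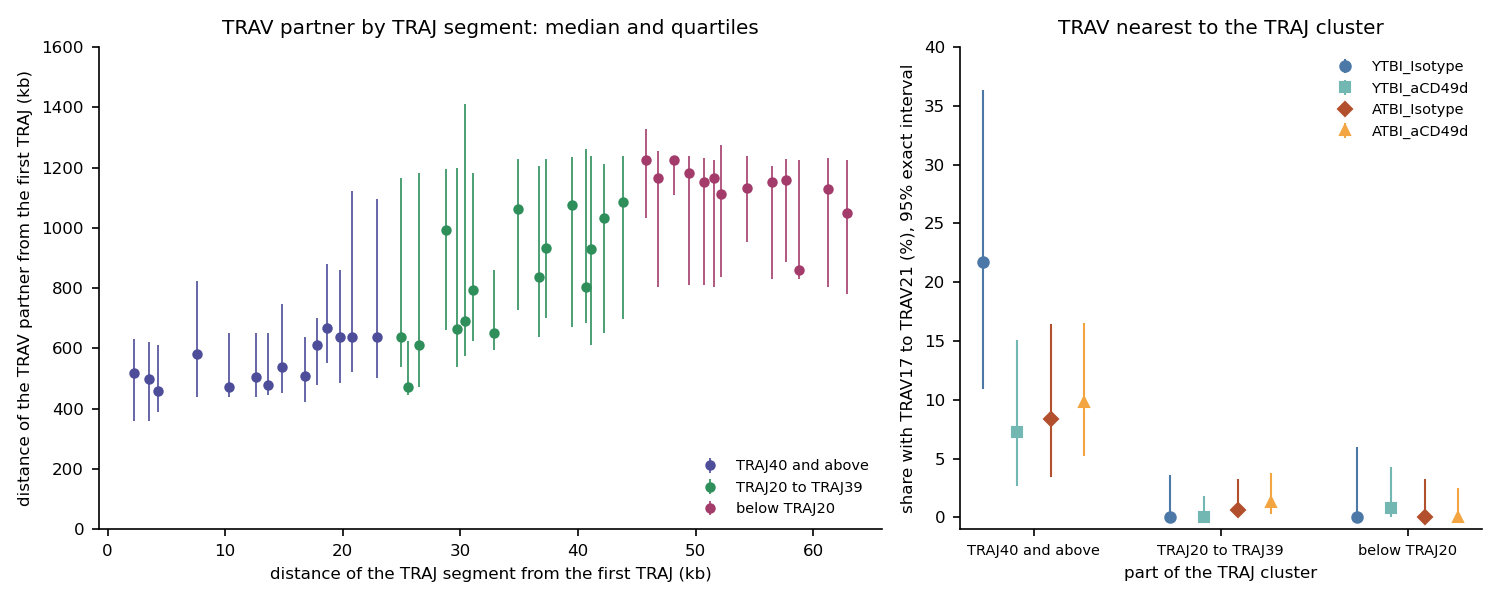
Left, distance (kb) of the TRAV partner from the first TRAJ (y axis, median and quartiles over rearrangements of all libraries without TRAV11-TRAJ18) against the distance of each TRAJ segment (x axis). Right, share (%) of rearrangements with TRAV17 to TRAV21 by stretch and library with 95% exact intervals. Partners of the upstream segments lie at medians of 458 to 667 kb and those of the downstream segments at 860 to 1225 kb.

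Across rearrangements, Spearman's rho between both distances was 0.43, 0.36, 0.36 and 0.37 (n = 207, 408, 363 and 500), and 0.49, 0.43, 0.40 and 0.43 without TRAV11-TRAJ18. Rearrangements of 1 library share their mice, and this is a description only. Of all rearrangements, 47.2% were assigned to TRAV genes of the duplicated D and N copies, whose near-identical sequences can be confused, and such a call moves the distance. None of the TRAV17, TRAV19 and TRAV21-DV12 calls was a D or N copy. Seen from the TRAV side, the near part of the TRAV span was joined to TRAJ40 and above in 40.7% of 619 rearrangements without TRAV11-TRAJ18, the middle part in 9.42% of 531 and the far part in 15.4% of 214. The far part thus did not have the lowest share.

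Most pairs were rare. The 1478 rearrangements held 919 TRAV-TRAJ pairs, of which 630 (68.6%) were seen in 1 rearrangement. After TRAV11-TRAJ18 (114), the commonest pairs were TRAV12D-2-TRAJ22 (7 rearrangements, in all 4 libraries), TRAV12-1-TRAJ22, TRAV14D-1-TRAJ23 and TRAV3D-3-TRAJ7 (6 each), and TRAV7-5-TRAJ31 tied with them at 6. No other pair came near TRAV11-TRAJ18. TRAV12-1-TRAJ22 was 5 of 6 times in ATBI_Isotype and covered 128 cells, but these 5 were a pair of nucleotide sequences, in 3 deposited clonotypes (113 cells) and in 2 (13 cells), so its place rests on repeats. Of the distinct joints (TRAV, TRAJ and CDR3 nucleotides), 14 of 1345 occurred in 2 or more libraries. Of these, 5 were TRAV11-TRAJ18, including the 3 found in all libraries. The others used the middle stretch 6 times, each time with TRAJ22 or TRAJ31, the downstream stretch 2 times and the upstream stretch 1 time.

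The CDR3 had a mean of 13.7 ± 1.38 residues (SD over 1478 rearrangements). Its length followed the germline segment. TRAJ2, the longest, gave 15.7 ± 1.07 residues (n = 12) and TRAJ33, the shortest, 12.1 ± 1.46 (n = 38).
TRAJ2 (chr14:54217836-54217901): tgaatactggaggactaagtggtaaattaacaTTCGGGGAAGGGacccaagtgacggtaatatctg
TRAJ2 has 35 bases up to the end of the CDR3 and TRAJ33, shown earlier, has 26. Grouped by whole germline codons, segments with 8 gave a mean of 12.5 residues (n = 229, without TRAV11-TRAJ18), those with 9 gave 13.4 (n = 648), those with 10 gave 14.1 (n = 334) and those with 11 gave 14.9 (n = 153). The order was the same in each library, from 12.9, 12.4, 12.6 and 12.5 residues at 8 codons to 15, 14.9, 14.8 and 14.9 at 11. Over the 40 segments with 10 or more rearrangements, Pearson's r between mean length and germline codons was 0.91 and Spearman's rho 0.91, across segments as a description.

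**Figure D5:**
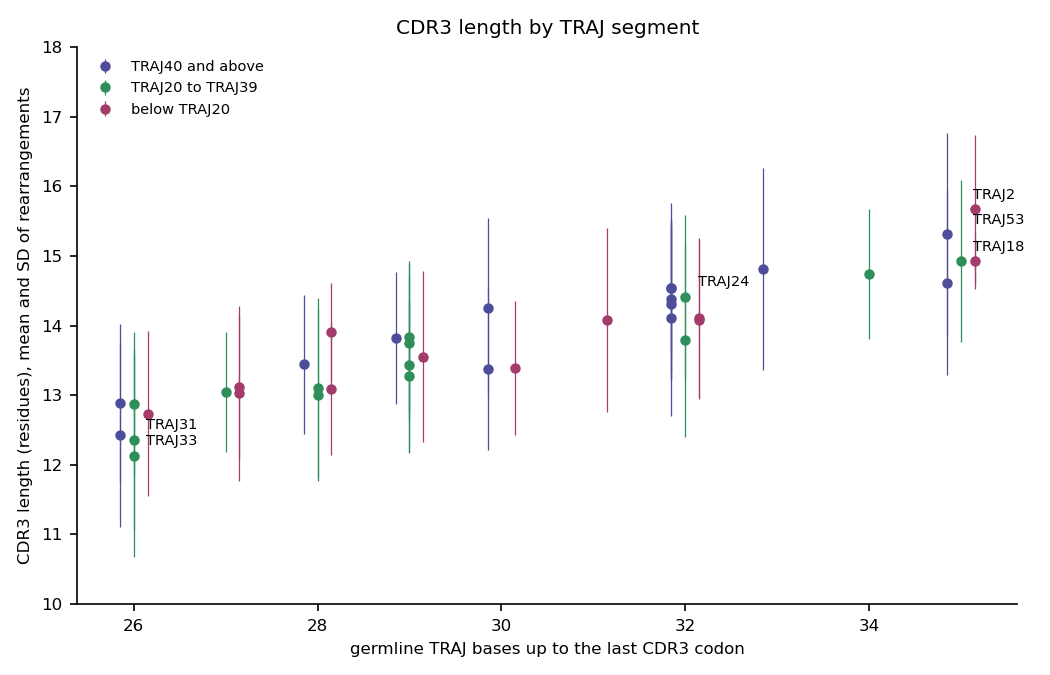
CDR3 length in residues (y axis, mean and SD over rearrangements of all libraries) of the 40 TRAJ segments with 10 or more rearrangements, against the germline bases of the segment up to the last CDR3 codon (x axis). Mean length climbs with the germline bases in all stretches, from TRAJ33 (12.1 residues) to TRAJ2 (15.7 residues).

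The stretches differed less than the segments in them. Mean CDR3 length was 13.98 ± 1.4 residues for TRAJ40 and above, 13.38 ± 1.37 in the middle and 13.97 ± 1.26 below TRAJ20 (13.61 ± 1.28 without TRAV11-TRAJ18). TRAJ40 and above minus below TRAJ20 was -0.49 (-0.94 to -0.03), 0.14 (-0.27 to 0.54), 0.23 (-0.15 to 0.61) and -0.02 residues (-0.33 to 0.30). Without TRAV11-TRAJ18, all at 15 residues, it was -0.15 (-0.69 to 0.38), 0.49 (0.07 to 0.92), 0.52 (0.12 to 0.91) and 0.37 (0.03 to 0.71). The interval of YTBI_Isotype held 0 under all 8 alternatives, and by cell ATBI_Isotype turned to -0.55 residues (-0.85 to -0.25), so no direction held over the libraries and ways of counting. Single-cell and larger clonotypes differed by 0.14, 0.11, 0.12 and -0.005 residues in the 4 libraries, and all intervals held 0.

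The part of each germline segment that reached the CDR3 was read by matching each CDR3 from its end backwards. On average 2.57 ± 2.44 bases (SD) were missing, and 23.8% of rearrangements kept all of them. Losses were 2.86 ± 2.34 bases upstream, 2.58 ± 2.67 in the middle and 2.34 ± 2.11 downstream (2.56 ± 2.39 without TRAV11-TRAJ18). They varied by segment, from 1.0 in TRAJ11 and TRAJ16 to 5.65 in TRAJ18 without TRAV11. The bases before the germline match, from TRAV and from added nucleotides, were 14.2 ± 3.25, 13.95 ± 3.07 and 13.3 ± 3.0 in the same order, and 13.87 ± 3.29 downstream without TRAV11-TRAJ18.

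For 5 segments seen, the heptamer ended away from the annotated start, and coding bases were counted from the heptamer. The largest shift was TRAJ24, where 7 bases, in capitals, precede the annotated start at 54195645.
TRAJ24 (chr14:54195638-54195700): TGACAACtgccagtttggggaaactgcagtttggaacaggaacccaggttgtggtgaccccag
All 17 TRAJ24 rearrangements carried 2 or more of these further germline bases. In TRAJ47 (2 bases before its start) 12 of 18 carried 1 or more, and in TRAJ45 (3 bases) 5 of 13 did. TRAJ48 and TRAJ12 had a heptamer that ended 1 base inside the annotated segment.

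A clonotype with 2 alpha segments may show both alleles of a cell, and whether some of their barcodes held 2 cells was not tested. Of 101 such clonotypes, 64 (63.4%, 53.2 to 72.7) had both segments in the same stretch, and the segments lay a median of 8.44 kb apart. In the libraries this was 10 of 14, 24 of 33, 12 of 20 and 18 of 34. When 1 segment was TRAJ40 or above, the other was too in 22 of 33 chains (66.7%), and when it was not, the other was TRAJ40 or above in 11 of 169 (6.51%). For the middle stretch the same shares were 74 of 109 (67.9%) and 35 of 93 (37.6%), and below TRAJ20 they were 32 of 60 (53.3%) and 28 of 142 (19.7%). In ATBI_Isotype the order was reversed below TRAJ20, with 2 of 10 and 8 of 30. Each clonotype enters this count from both of its chains.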

How the data were processed

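The 4 T cell receptor libraries were made from sorted brain cells with the 10x 5' immune profiling kit, and the authors aligned the reads to the mouse genome mm10 with Cell Ranger (version 7.2.0 in the submitters' processing notes). The deposited contig tables list, for each cell barcode, the called TRAV, TRAJ and CDR3 with counts of reads and UMIs as whole numbers, not normalized, for productive chains only. The authors later kept receptors of T cells by transcriptome, a step not repeated here, and the matching gene expression libraries were not analysed here.

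A rearrangement was 1 library, deposited clonotype and TRAJ segment. Positions and sequences came from the RefSeq annotation of GRCm38.p6, the assembly of mm10, matched by gene name, which found all TRAJ and TRAV called. The recombination signal was taken where heptamer and nonamer best matched the commonest bases, from 8 bases before to 2 bases after the annotated start. The bases of each CDR3 that match the segment were counted from its 3' end. Simulated junctions checked the counting only, since the base next to their trimmed end was set to differ from germline. They could not show the error from bases that match by chance. Bases added by chance that equal the germline count as kept.

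Shares have exact 95% intervals, differences of shares Newcombe intervals built from them, and differences of mean length normal-theory intervals. With 1 library in each group no test was run. UMIs were not used to weight chains, and intervals cover counting error only. The members, lists and comparisons were chosen with earlier results of these data known.

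Segments named by rule were the 3 most used of each stretch, TRAJ18 and TRAJ33. So were the 2 with the largest difference in each of the 4 comparisons of libraries. The rule also took the 3 with the largest gap between cells and rearrangements. It took those with the longest and shortest mean CDR3 (10 rearrangements or more), the unseen ones, and the 5 commonest pairs. Others, such as TRAJ58, TRAJ38, TRAJ16, TRAJ11, TRAJ44, TRAJ7 and those with a shifted heptamer, were named after their values were seen. In the 8 alternatives, values were recomputed by cell, by distinct nucleotide sequence, without TRAV11-TRAJ18, with 1 alpha chain, with 2 or more UMIs, without cells of over 1 beta or over 2 alpha chains, with both chains, and with 3 equal groups of segments. Python 3.11.15 was used with numpy 2.4.6, pandas 2.3.3, scipy 1.17.1, biopython 1.88 and matplotlib 3.10.9.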

Additional observations from a re-analysis of the deposited data

Results flagged for a closer look

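The difference between aCD49d and isotype had opposite signs in young and aged libraries in the outer stretches of the TRAJ cluster. For TRAJ40 and above it was -1.88 points in young and 1.26 points in aged mice, a gap of 3.14 points. For the segments below TRAJ20 it was 2.39 points in young and -0.90 points in aged mice, a gap of -3.29 points. With 1 library in each group neither gap was tested, and all 4 intervals held 0.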

How the results depend on the processing

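The alternatives gave 156 values for 20 differences, and 153 stayed within the 95% interval of the reported value. They largely recount the same rearrangements, and many of the intervals are wide, so this is a loose standard. Of the 156 values, 11 had the other sign from the reported one. These were 7 of mean CDR3 length, 3 between libraries and 1 of single-cell against larger clonotypes. The 3 values outside the interval concerned mean CDR3 length, TRAJ40 and above minus below TRAJ20. In ATBI_Isotype it was -0.55 residues by cell in place of 0.23, where 71 of 88 TRAJ9 cells carried 1 CDR3 of 16 residues. In ATBI_aCD49d it was 0.33 residues over distinct nucleotide sequences and 0.37 without TRAV11-TRAJ18, in place of -0.02. The interval of this difference in YTBI_Isotype held 0 under all 8 alternatives. In ATBI_Isotype it lay above 0 over distinct nucleotide sequences (0.47, 0.08 to 0.86) and with 3 equal groups (0.39, 0.03 to 0.76). It also lay above 0 there without TRAV11-TRAJ18 (0.52, 0.12 to 0.91), and below 0 by cell. The differences between libraries in TRAJ40 and above and in the segments below TRAJ20 ran from -3.20 to 4.63 points over the alternatives, and none of the 64 intervals left out 0. Settings were changed 1 at a time. Outside these 64, ATBI_aCD49d minus ATBI_Isotype in TRAJ40 and above left out 0 by cell without TRAV11-TRAJ18 (4.33 points, 0.09 to 8.49). It also did so by cell in clonotypes of 2 or more cells (6.62 points, 1.34 to 11.8). Intervals by cell are too narrow. The excess of TRAV17 to TRAV21 among TRAJ40 and above stayed positive in all 32 values (5.02 to 23.3 points), and the interval held 0 in 4 of them, all in YTBI_aCD49d. No paired analysis was run, and there was a single library in each group. The lowest share that could be seen was set by 207 to 500 rearrangements, and at 0 counts the exact intervals allow up to 1.77%, 0.90%, 1.01% and 0.74%.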
